A study of Mus musculus with 6 samples.

Results

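Oxidative phosphorylation was followed in cerebrum RNA of aged mice through the protein-coding genes for its 5 enzyme complexes. The genes were taken by symbol from the 38087 genes of the deposited count table, which gave 92 genes of the nuclear genome. By the family name in their symbol alone, 44 were assigned to complex I, 4 to complex II, 8 to complex III, 18 to complex IV and 18 to complex V. The same rule asked for the protein genes of the mitochondrial genome, and 0 rows carried such a symbol, so the mitochondrial arm itself is not analysed here. A further row with a matching symbol, Atp5l2, is listed as a pseudogene and was left out. By role, 74 of the 92 genes are counted here as subunits in general use, 9 as assembly or other factors that carry a family symbol, and 9 as alternative isoforms or gene copies.

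By the methods, the RNA came from a frozen hemisphere, from the cerebrum with its cortex and hippocampus and without olfactory bulb, cerebellum and medulla. The mice were 24 months old and of the strain labelled C57BL6, which the methods call C57BL/6-based. The 3 WT mice were compared with 3 Sgo1-/+ mice, which have lost 1 copy of Shugoshin 1, a protector of sister chromatid cohesion at centromeres, and both groups were untreated. Each mouse gave 1 library, WT replicate 1 and Sgo1-/+ replicate 2 were male and the other mice female. Sequencing run 258 held all WT samples and run 259 all Sgo1-/+ samples, and the effects of genotype and run cannot be told apart.

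The mitochondrial respiratory chain passes electrons from NADH through complex I, and from succinate through complex II, to ubiquinone, then through complex III and cytochrome c to complex IV, which reduces oxygen. Complexes I, III and IV pump protons, and complex V, the ATP synthase, uses the proton gradient to make ATP. All subunits of complex II are encoded in the nucleus, whereas the other complexes combine nuclear subunits with subunits encoded in mitochondrial DNA, and neurons draw most of their ATP from this pathway.

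Total estimated counts lay between 11123917 and 12505561 per library, and 88 of the 92 genes passed the filter on low counts, among 16337 genes tested in all. Levels are given as normalized counts, that is, estimated counts scaled to a common library size with TMM factors. The targeted gene, listed as Sgol1, had estimated counts of 0, 7 and 0 for the WT mice, in order of replicate, and of 4, 2 and 0 for the Sgo1-/+ mice, which is too few to check the genotypes. WT replicate 1 stood apart from the other 5 libraries in markers of cell types and brain regions. Its summed level was 4252 normalized counts over 7 brain stem genes, 16245 over 7 cerebellar granule cell genes and 17246 over 7 Purkinje cell genes, against 15.2 to 57.9, 452 to 1368 and 2033 to 2797 in the other libraries. All 7 genes of each of these lists were highest in it. The brain stem list includes Slc6a5 and the Purkinje cell list Pcp2 and Ppp1r17, which the paper lists as lower in Sgo1-/+. For those genes a higher level in WT was known beforehand, whereas the granule cell list holds none of the paper's listed genes. The summed levels go against the stated removal of cerebellum and medulla for the library labelled WT replicate 1. The summed neuron list was lowest in WT replicate 1, at 69134 normalized counts against 85165 to 105914, although 2 of its 8 genes were highest there. The microglia list was also lowest in that library, with 2949, 3568 and 3804 in WT and 4210, 4138 and 4459 in Sgo1-/+. All 3 Sgo1-/+ libraries thus lay above all 3 WT libraries for microglia, a difference that was not tested. The oligodendrocyte list reached 140900 in WT replicate 1 and 132915 in Sgo1-/+ replicate 3, against 53401 to 77224 in the rest. The choroid plexus list reached 20813 in WT replicate 1, 23133 in Sgo1-/+ replicate 3 and 7116 in WT replicate 2, against 150.0 to 930 in the rest. The astrocyte list was highest in WT replicate 1, at 62717 against 52890 to 59427, with 4 of its 6 genes highest there. Over all 6 libraries endothelium ranged from 2122 to 2699, mural cells from 2003 to 2544, red cells from 715 to 8739 and skeletal muscle from 41.2 to 151, and all 5 testis genes stayed at or under 3 counts. Counts and medians by complex and by list are therefore given with and without WT replicate 1, as are those log2 fold changes of named genes that leaving it out moved by more than 0.2. In bulk RNA, fewer cells of a type and less RNA per cell cannot be told apart.

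No oxidative phosphorylation gene differed between Sgo1-/+ and WT by edgeR's quasi-likelihood test. At an adjusted p-value under 0.05, 0 of 88 genes passed, as did 0.0% of all genes tested, and at an unadjusted p-value under 0.05 again 0 of 88 passed, against 2.04% of all genes tested. The smallest unadjusted p-value of the 88 was 0.0667, for Cox6a1, and the smallest adjusted one rounded to 1.00. DESeq2's Wald test covered 91 of the 92 genes and called 0 at the adjusted threshold, against 3 of 26061 genes in all. At the unadjusted one it called 1, Cox6a2, against 1.7% of those genes. The fitted changes were small. Of the 88 genes, 83 had a log2 fold change under 0.25 in size, and for 78 the 95% interval lay inside a 1.5-fold change in either direction. The median distance from estimate to interval limit was 0.31 on the log2 scale. For a typical gene of this list, a fitted change of that size just reaches an unadjusted p-value of 0.05 by this edgeR test. The adjusted threshold needs a larger one, so true changes above 0.31 could also have been missed with these 6 libraries.

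The direction of these small differences followed WT replicate 1. With all 6 libraries, 63 of 88 genes had a fitted change below 0, that is, lower in Sgo1-/+, against 50.2% of all genes tested, with a median log2 fold change of -0.05 against -0.001 over all genes. Without WT replicate 1, 21 of 88 lay below 0, against 48.7% of all genes tested, and the median was 0.05 against 0.005. In that comparison also, 0 of 88 genes had an unadjusted p-value under 0.05 by edgeR's quasi-likelihood test, against 3.77% of all genes tested (1.86% on the higher and 1.91% on the lower side).

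**Figure D1:**
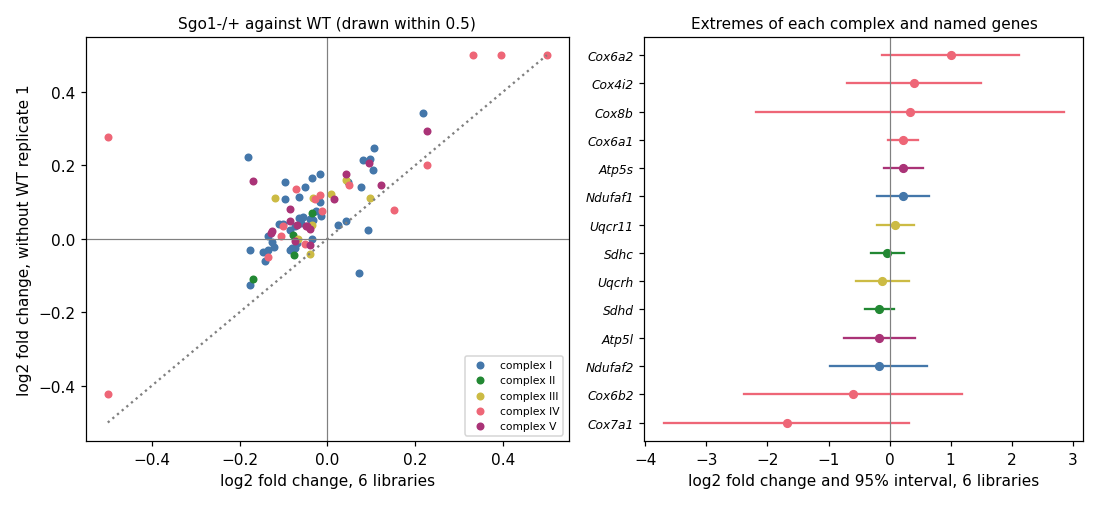
Left, log2 fold change of Sgo1-/+ against WT for the 88 genes tested, with all 6 libraries (x axis) and without WT replicate 1 (y axis), coloured by complex, with values past 0.5 drawn at 0.5 and a dotted line of equal values; most points lie above that line, with 63 genes left of 0 on the x axis and 21 below 0 on the y axis. Right, log2 fold change with its 95% interval for the genes with the highest and lowest values in each complex and for other named genes, all of whose intervals include 0.

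The same library was the highest of the 6 for 70 of the 88 genes, against 28.1% of all genes tested, and the lowest for 3 of the 88, against 30.2%. Its level was above the mean of the other 5 libraries for 80 of the 88 genes and more than 1.2 times that mean for 39, with a median ratio of 1.18. Expressed as log2 of the ratio to each gene's median library, with 1 count added, the 88 genes had a median of 0.22 for WT replicate 1. The medians of the next WT libraries were -0.08 and -0.05, and those of the Sgo1-/+ libraries, by replicate, were 0.01, -0.02 and 0.02. The part of the brain stem, cerebellar and neuron markers in the position of WT replicate 1 was not tested.

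**Figure D2:**
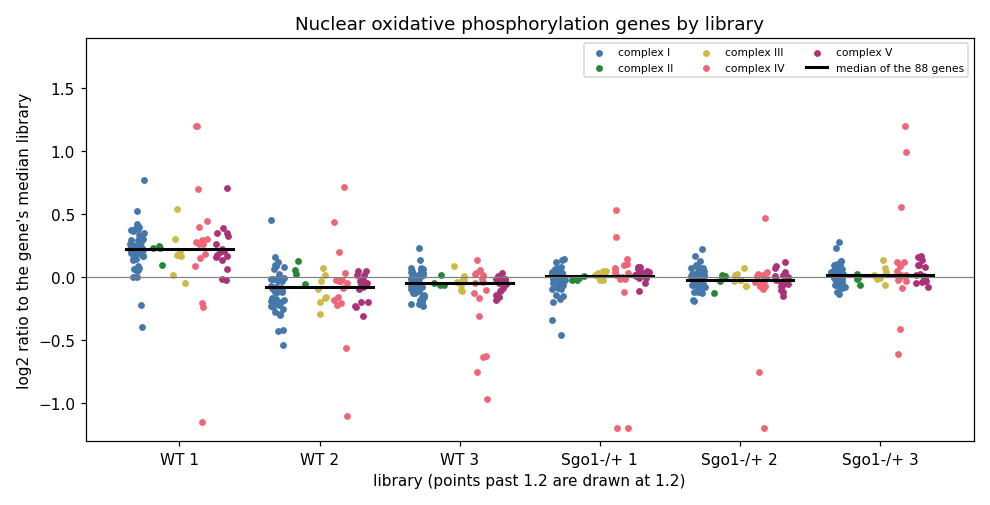
Log2 ratio of each of the 88 tested genes to its median over the 6 libraries (y axis, points past 1.2 drawn at 1.2), by library (x axis) and complex (colour), with a black line at the median of the 88 genes. The line lies at 0.22 for WT replicate 1, with the other 5 libraries between -0.08 and 0.02, and points of complex IV spread most.

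The excess in WT replicate 1 was counted by role and by complex. Of the 73 subunits tested, 63 were highest in it, as were 5 of 9 factors and 2 of 6 alternative isoforms; these are counts, and the difference between roles was not tested. By complex, the library was highest for 35 of 44 genes of complex I, 4 of 4 of complex II, 6 of 8 of complex III, 11 of 16 of complex IV and 14 of 16 of complex V. The log2 fold changes of the 73 subunits, between Sgo1-/+ and WT, ran from -0.18 to 0.23 with a median of -0.05, or 0.05 without WT replicate 1, and those of the 6 isoforms from -1.68 to 1.00. Most of the 88 genes are short, with a median transcript length of 892 bases, and 71 of them fall in the shortest of 5 length classes of equal size. Within that class, the median log2 ratio in WT replicate 1 was 0.24 for the 71 genes and 0.03 for the other genes. Within each of 5 classes of GC content, the median for the oxidative phosphorylation genes lay between 0.17 and 0.24, and that of the other genes between -0.006 and 0.003.

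Summed over the 92 genes, the level was 144617 normalized counts for WT replicate 1, then 122139 and 123221 for the other WT libraries. The Sgo1-/+ replicates gave 127774, 125301 and 127871. The mean ± SD (n = 3) was 129992 ± 12677 for WT against 126982 ± 1457 for Sgo1-/+, a log2 difference of -0.03, which is smaller than the spread of the WT libraries. Without WT replicate 1 all 3 Sgo1-/+ libraries lay above the remaining 2 WT libraries, with a log2 difference of 0.05. The share of all estimated counts that fell on these genes was 1.29% for WT replicate 1 and 0.988% to 1.04% for the rest.

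Complex I is the entry point for electrons from NADH and the largest complex of the chain. Its summed level was 43809, 35334 and 36371 normalized counts for the WT libraries by replicate, against 37146, 36809 and 37822 for the Sgo1-/+ libraries. Of its 44 genes, all tested, 33 had a fitted change below 0, with a median of -0.06, and 12 did so without WT replicate 1, with a median of 0.05. The core subunit Ndufs1, which carries iron-sulfur clusters, had 2235, 2057 and 2005 normalized counts in WT and 1944, 1989 and 2048 in Sgo1-/+, with a log2 fold change, given here and below with its SE, of -0.07 ± 0.10. Its highest value was in WT replicate 1 and the groups overlapped. Ndufv1, which binds NADH and the flavin cofactor, had 2031, 1929 and 1704 normalized counts in WT and 1785, 1733 and 1822 in Sgo1-/+, a log2 fold change of -0.08 ± 0.11.

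Per length of transcript, the gene of highest level in complex I was Ndufa4, first described in this complex and later found with complex IV, with a mean ± SD (n = 3) of 4161 ± 530 normalized counts per kilobase for WT against 3761 ± 126 for Sgo1-/+. Its 2910.4, 2328 and 2376 normalized counts in WT and 2376, 2224 and 2283 in Sgo1-/+ gave a log2 fold change of -0.15 ± 0.12. The median level over the complex was 875 per kilobase. At the extremes of the fitted changes stood 2 assembly factors, which help build the complex and are not part of the finished enzyme. Ndufaf1 had 229, 160.1 and 203 normalized counts in WT and 238, 253 and 199 in Sgo1-/+, a log2 fold change of 0.22 ± 0.18. Ndufaf2 had 275, 110.03 and 169 in WT and 142, 152 and 195 in Sgo1-/+, a log2 fold change of -0.18 ± 0.33, which became 0.22 ± 0.24 without WT replicate 1. Neither passed the test, and the groups overlapped for both.

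Complex II is succinate dehydrogenase, an enzyme of the citric acid cycle that also feeds the chain, with Sdha and Sdhb as its catalytic subunits and Sdhc and Sdhd as its membrane anchors. The summed level of the 4 genes was 10106, 8933 and 8434 normalized counts in WT and 8641, 8657 and 8634 in Sgo1-/+. Sdha had 6214, 5392 and 5071 normalized counts in WT and 5217, 5350.1 and 5224 in Sgo1-/+, a log2 fold change of -0.08 ± 0.12. Sdhb had 1549, 1506 and 1405 in WT and 1457, 1332 and 1442 in Sgo1-/+, a log2 fold change of -0.08 ± 0.10. Both catalytic subunits overlapped between the groups. Sdhc had 1187, 970.4 and 967 in WT and 1004, 1017 and 1030.5 in Sgo1-/+, a log2 fold change of -0.04 ± 0.11. All 4 genes of the complex had a fitted change below 0, with a median of -0.08, and 2 did so without WT replicate 1, with a median of -0.02.

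Sdhd (ENSMUSG00000000171, chr9:50596338-50603849, minus strand) was the only tested gene of the list with all 3 Sgo1-/+ libraries below all 3 WT libraries. It had 1156, 1066 and 990.0 normalized counts in WT and 963, 958 and 937 in Sgo1-/+, with means ± SD (n = 3) of 1071 ± 83.3 and 952 ± 13.7. The log2 fold change was -0.17 ± 0.10 with an unadjusted p-value of 0.135 by edgeR's quasi-likelihood test, and -0.11 ± 0.09 without WT replicate 1. An exact permutation test, two-sided, had p = 0.1, the smallest value that 3 libraries against 3 allow. Groups did not overlap for 3 of the 88 genes, 1 lower and 2 higher in Sgo1-/+, against 6.84% of all genes tested, or 3.57% lower and 3.27% higher, so that such genes were no more frequent in the list than among all genes.

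Complex III, the cytochrome bc1 complex, hands electrons from ubiquinol to cytochrome c. Of its 8 genes, 5 had a fitted change below 0, with a median of -0.03, and 2 did so without WT replicate 1, with a median of 0.11. The summed level was 13452, 11437 and 11499.8 normalized counts in WT and 12029.5, 11639.9 and 11873 in Sgo1-/+. Uqcrfs1, the Rieske iron-sulfur protein, had 1481, 1283 and 1318 normalized counts in WT and 1342, 1250.4 and 1304 in Sgo1-/+, a log2 fold change of -0.07 ± 0.10. Uqcrc1, a core protein, had 3011, 2717 and 2505 in WT and 2739.8, 2643 and 2653 in Sgo1-/+, a log2 fold change of -0.03 ± 0.11. Uqcrh is the hinge protein beside cytochrome c1 and the gene of highest level per length in this complex, and WT replicate 1 was at 1.45 times the mean of the other 5 libraries. It had 2313, 1492 and 1551 normalized counts in WT and 1613, 1570.2 and 1747 in Sgo1-/+. Its log2 fold change was -0.12 ± 0.18 with all 6 libraries, whereas leaving out WT replicate 1 gave 0.11 ± 0.09. Uqcr11, a small subunit, had the highest fold change of the complex, 0.10 ± 0.13, from 820.5, 690.5 and 900.2 in WT and 876, 809 and 891 in Sgo1-/+.

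Complex IV, cytochrome c oxidase, reduces oxygen to water, and its nuclear subunits surround a core encoded in mitochondrial DNA. Its 18 genes summed to 25093, 21646 and 22256 normalized counts in WT and 23769, 22858 and 23661 in Sgo1-/+. Of the 16 tested, 10 had a fitted change below 0, with a median of -0.02, and 3 did so without WT replicate 1, with a median of 0.11. Cox4i1, the common form of subunit 4, had 4901, 4229 and 4017 normalized counts in WT and 4415, 4403 and 4221 in Sgo1-/+, a log2 fold change of -0.01 ± 0.12. Cox4i1 overlaps Gm20388 on the same strand and Emc8 on the opposite strand, with 475 and 1030 estimated counts on average. Its reads therefore cannot be told apart from theirs with certainty, and the paper lists Gm20388 as higher in Sgo1-/+. Cox5a had 2101, 1503 and 1740.3 in WT and 1573, 1685 and 1722 in Sgo1-/+, a log2 fold change of -0.10 ± 0.14. For Cox5a, WT replicate 1 was again the highest.

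Cox6a1, the common form of subunit 6a (ENSMUSG00000041697, chr5:115345642-115348981, minus strand in mm10), had the smallest p-value of the list. It had 2543, 2538 and 2840.3 normalized counts in WT and 3149, 3006 and 3112 in Sgo1-/+, so all 3 Sgo1-/+ libraries lay above all 3 WT libraries, and WT replicate 1 was at 0.868 times the mean of the other 5 libraries. The group means ± SD (n = 3) were 2640.2 ± 173 and 3089 ± 73.9. The log2 fold change was 0.23 ± 0.10, with a 95% interval from -0.02 to 0.47 and an adjusted p-value that rounded to 1.00 by edgeR's quasi-likelihood test, and 0.20 ± 0.10 without WT replicate 1. The exact permutation p was again 0.1, the smallest possible. None of the 50-base words of its transcripts occurs in another row of the table. Cox8a, the gene of highest level per length in complex IV, had its lowest value in WT replicate 1, with 3024, 3497 and 3613 normalized counts in WT and 3939, 3457 and 3856 in Sgo1-/+, and a log2 fold change of 0.15 ± 0.12.

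The isoforms of complex IV that are known from heart and skeletal muscle, testis or lung were present at low levels. Shares are given per length, as the minor form's percentage of the sum of minor and major form. The length is that of the longest transcript annotated as principal for the gene. Cox7a1, the muscle form of subunit 7a (ENSMUSG00000074218, chr7:30184171-30186028, plus strand), was at a mean ± SD (n = 3) of 3.44% ± 3.23 of its sum with the common form Cox7a2 for WT against 1.27% ± 0.513 for Sgo1-/+. It had 66.8, 18.6 and 6.09 normalized counts in WT and 13.9, 6.08 and 8.01 in Sgo1-/+, so its log2 fold change of -1.68 ± 0.84, the lowest of the list, rested on WT replicate 1 and became -0.42 ± 0.64 without it. Cox7a2 itself had 1481, 1215 and 1289 in WT and 1239.7, 1157 and 1234 in Sgo1-/+, a log2 fold change of -0.13 ± 0.11. Cox7a2l, a related protein that joins complexes III and IV into supercomplexes, had 1712, 1555 and 1626 in WT and 1592, 1620.3 and 1511 in Sgo1-/+, a log2 fold change of -0.05 ± 0.10.

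The muscle form Cox6a2 (ENSMUSG00000030785, chr7:128205436-128206366, minus strand) had a fitted change of the opposite sign, at a mean ± SD (n = 3) of 1.41% ± 0.679 of its sum with Cox6a1 per length for WT against 2.42% ± 1.01 for Sgo1-/+. Its 30.5, 31.4 and 75.7 normalized counts in WT and 72.2, 65.3 and 138 in Sgo1-/+ gave the highest log2 fold change of the list, 1.00 ± 0.47, with an unadjusted p-value of 0.072 (adjusted p-value 1.00) by edgeR's quasi-likelihood test. The change was 0.77 ± 0.47 without WT replicate 1. The groups overlapped, since WT replicate 3 lay above Sgo1-/+ replicates 1 and 2. The summed level of 7 skeletal muscle markers was 41.2 to 151 normalized counts in WT and 75.9 to 122 in Sgo1-/+, and 1 of the 7 was highest in WT replicate 1.

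The other minor forms of complex IV gave few counts. Cox4i2, the lung form of subunit 4, had 29.9, 14.9 and 14.2 normalized counts in WT and 32.8, 31.4 and 14.3 in Sgo1-/+, a log2 fold change of 0.40 ± 0.46, or 0.83 ± 0.48 without WT replicate 1. Cox6b2, the testis form of subunit 6b, had 55.2, 21.2 and 10.1 in WT and 5.72, 20.3 and 31.0 in Sgo1-/+, a log2 fold change of -0.60 ± 0.75, or 0.28 ± 0.68 without WT replicate 1. Its common form Cox6b1 had 2199, 1575 and 1812 in WT and 1875, 1746 and 1857 in Sgo1-/+, a log2 fold change of -0.03 ± 0.14. Cox8b, the muscle form of subunit 8, had 13.9, 11.4 and 4.90 in WT and 1.99, 2.03 and 34.8 in Sgo1-/+, so that 1 library, Sgo1-/+ replicate 3, set its log2 fold change of 0.33 ± 1.06, which was -2.28 without it and 0.63 ± 1.198 without WT replicate 1. Cox7b2 stayed under 10 normalized counts in every library and was not tested, whereas the common form Cox7b had 1875, 1232 and 1329 in WT and 1469, 1331 and 1418 in Sgo1-/+, a log2 fold change of -0.07 ± 0.17, or 0.14 ± 0.10 without WT replicate 1. Cox8c had 0 counts in all 6 libraries, each of which allows up to 3 counts. In complex I, Ndufa4l2, a relative of Ndufa4 known from cells at low oxygen and from pericytes, was at 0.450% to 1.03% of its sum with Ndufa4 per length, with a log2 fold change of 0.07 ± 0.33.

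**Figure D3:**
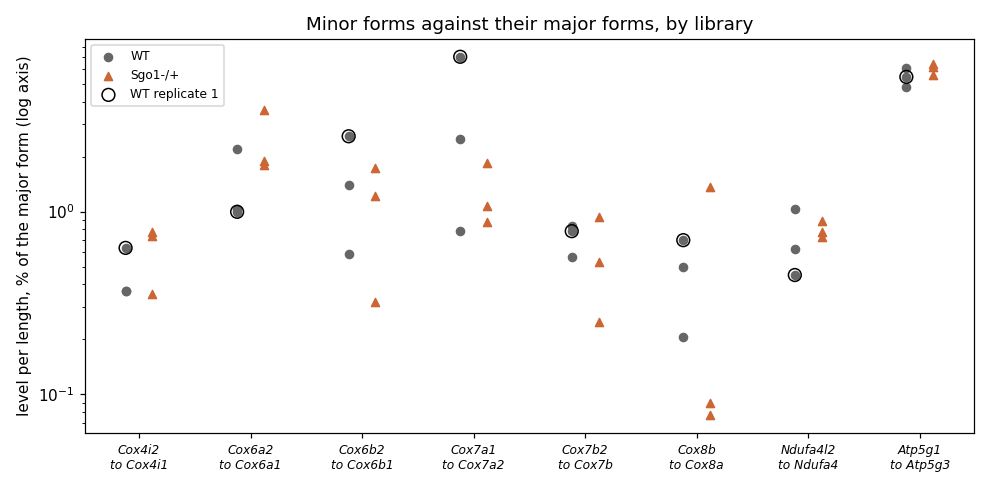
Level per length of 8 minor forms as a percentage of the sum of minor and major form (y axis, log scale) in each library, with WT as grey circles, WT replicate 1 ringed and Sgo1-/+ as orange triangles. The axis label calls this the percentage of the major form. For the pair of Atp5g1 and Atp5g3 the lengths used were 4715 and 723 bases, which lowers the share of Atp5g1. The shares lie between 0.0770% and 7.03%, the groups overlap for each pair, and Cox7a1 and Cox6b2 are highest in WT replicate 1.

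Complex V has a catalytic F1 head, with Atp5a1 and Atp5b as its main subunits, on a membrane rotor of c subunits. The 18 genes of this family summed to 52156, 44789 and 44661 normalized counts in WT and 46188, 45337 and 45881 in Sgo1-/+. Of the 16 tested, 11 had a fitted change below 0, with a median of -0.05, and 2 did so without WT replicate 1, with a median of 0.04. Atp5b was the gene of highest level per length in the whole list, with a mean ± SD (n = 3) of 8055 ± 793 normalized counts per kilobase for WT against 7784 ± 35.7 for Sgo1-/+. It had 17176, 14395 and 14727 normalized counts in WT and 14979.7, 14919.9 and 14843 in Sgo1-/+, so WT replicate 1 exceeded the other libraries and the remaining WT libraries lay just below the Sgo1-/+ ones. Its log2 fold change was -0.05 ± 0.13, and 0.03 ± 0.09 without WT replicate 1. Atp5a1 had 11756, 11638 and 10832 in WT and 11171, 11279 and 10852 in Sgo1-/+, a log2 fold change of -0.04 ± 0.12.

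Atp5s, known as coupling factor B (ENSMUSG00000054894, chr12:69724962-69744658, plus strand), had the highest fold change of this family. It had 201, 173 and 179 normalized counts in WT and 215, 206 and 228 in Sgo1-/+, so the groups did not overlap. Its log2 fold change was 0.23 ± 0.13 with an unadjusted p-value of 0.133 by edgeR's quasi-likelihood test, and 0.29 ± 0.14 without WT replicate 1. The exact permutation p was 0.1 here too. The lowest fold change belonged to Atp5l, subunit g of the membrane part, which had 396, 229 and 220.2 in WT and 254, 231 and 267 in Sgo1-/+, a log2 fold change of -0.17 ± 0.24 that became 0.16 ± 0.14 without WT replicate 1.

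The c ring is encoded by Atp5g1, Atp5g2 and Atp5g3, which give the same mature protein. Atp5g3 had 3454, 2918 and 2690.3 normalized counts in WT and 2967, 2843 and 2831 in Sgo1-/+, a log2 fold change of -0.07 ± 0.13. Atp5g1 was at a mean ± SD (n = 3) of 5.46% ± 0.682 of its sum with Atp5g3 per length for WT against 6.07% ± 0.414 for Sgo1-/+, with 1301, 955 and 1149 normalized counts in WT, 1150.2, 1221 and 1266 in Sgo1-/+ and a log2 fold change of 0.10 ± 0.13. The lengths used were 4715 bases for Atp5g1 and 723 for Atp5g3. The shares therefore depend on the transcript chosen and lie well below those that the counts alone would give. Atp5g2 was nearly without counts, at 3.01, 2.43 and 5.12 normalized counts in WT and 0.697, 0.949 and 0.851 in Sgo1-/+, and was removed by the filter. These values are at or near 3 counts and no fold is given. Over 441 bases, its coding sequence is the same as that of Gm10231, a row listed as a pseudogene on another chromosome, with 0 mismatches. A window of 60 coding bases of that stretch in mm10, chosen to lie in a single exon of Atp5g2, shows what a short read from either gene would hold. It is printed in lower case since no base differs.

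Atp5g2, chr15:102665796-102665855, minus strand: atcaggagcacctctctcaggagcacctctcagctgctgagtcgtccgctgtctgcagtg
Gm10231, chr17:5816542-5816601, minus strand: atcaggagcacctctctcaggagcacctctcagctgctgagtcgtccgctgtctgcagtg

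Gm10231 and a second copy, Gm10175, together with Atp5g2 had 530.3, 597 and 533 normalized counts in WT and 616, 582 and 519 in Sgo1-/+, and 99.0% to 99.9% of these were assigned to the copies. How many of them came from Atp5g2 cannot be told apart. The level of Atp5g2 in the table is therefore uncertain, and the same holds in part for other genes. Of the 92 genes, 46 share no 50-base word of their transcripts with another row, 27 share under 10% of their words and 19 share at least 10%. Atp5l had 266 estimated counts on average and its copy Gm10221 had 595, and with the copy added the WT libraries had 1078, 739.6 and 824 normalized counts and the Sgo1-/+ libraries 855, 817 and 857. Cox7c, a small subunit of complex IV, had 266 counts and its copies Gm12338 and Gm10012 had 463 and 37.3, and their sum was 898, 719 and 743 in WT and 751, 739 and 751 in Sgo1-/+. Ndufb4 of complex I had 209 counts and its copy Gm3244 had 306, and their sum was 513, 598 and 476 in WT and 482, 516 and 501 in Sgo1-/+. WT replicate 1 was the highest of the 6 for the sums of Atp5l and Cox7c, and WT replicate 2 for that of Ndufb4. The last gene removed by the filter, Atp5l-ps1, an intronless copy of Atp5l that the table lists as protein-coding, lay between 0 and 6.08 normalized counts.

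**Figure D4:**
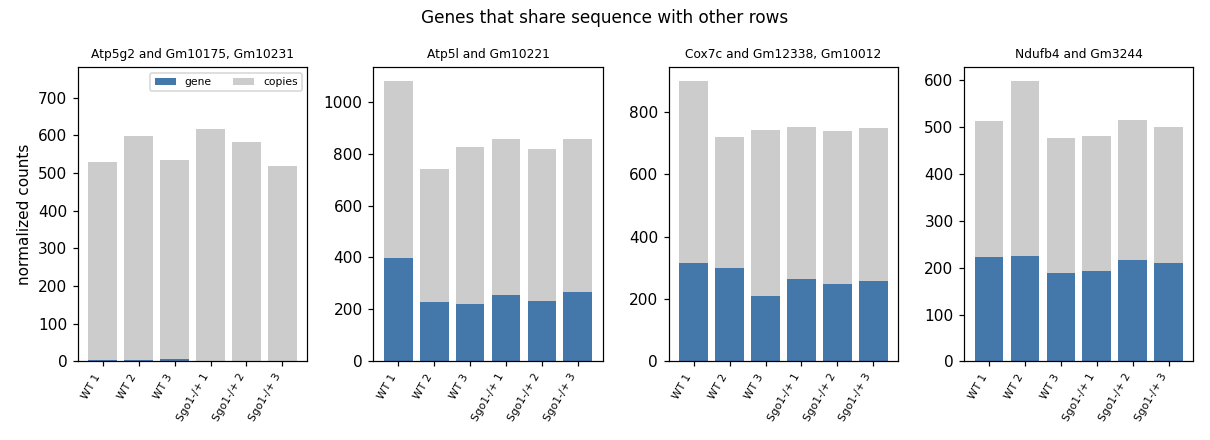
Normalized counts (y axis) of Atp5g2, Atp5l, Cox7c and Ndufb4 (blue) with those of the rows that share their sequence (grey, stacked) in each library (x axis). The copies hold 99.0% to 99.9% of the Atp5g2 sum and 56.6% to 73.3% of the other 3 sums.

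In place of the mitochondrial genes themselves, 10 rows of the table resemble 7 of the 13 protein genes of mitochondrial DNA, over at least 100 bases at an identity of at least 80%. These rows were found by their sequence and are named after their values were seen. They carry chromosome positions of the nuclear genome and 8 of them are listed as pseudogenes, as copies of mitochondrial DNA in nuclear chromosomes usually are. Whether their reads came from these copies or from mitochondrial RNA cannot be told apart with estimated counts alone. Gm13340 resembles mt-Co1, the catalytic subunit of complex IV, with 97.6% identity over 1545 bases and 318201 estimated counts on average. Gm13341 resembles mt-Co2 with 95.9% identity and 104004 counts, and Gm11410 resembles mt-Cytb, the ubiquinol-oxidizing subunit of complex III, with 92.9% identity and 102329 counts. Windows of 60 bases from each pair in mm10, with the bases that differ in capitals, show how little separates the nuclear copy from the mitochondrial gene.

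mt-Co1, chrM:5388-5447, plus strand: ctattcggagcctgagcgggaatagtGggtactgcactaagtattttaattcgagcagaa
Gm13340, chr2:22589528-22589587, minus strand: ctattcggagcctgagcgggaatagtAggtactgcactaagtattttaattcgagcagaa
mt-Co2, chrM:7013-7072, plus strand: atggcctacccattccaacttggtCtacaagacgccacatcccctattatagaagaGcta
Gm13341, chr2:22587903-22587962, minus strand: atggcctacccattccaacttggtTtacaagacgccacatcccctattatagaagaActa
mt-Cytb, chrM:14152-14211, plus strand: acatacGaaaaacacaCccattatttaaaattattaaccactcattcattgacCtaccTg
Gm11410, chr4:80003996-80004055, plus strand: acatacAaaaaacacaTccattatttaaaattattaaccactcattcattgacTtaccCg

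The 10 rows together held 550215, 641554 and 656671 normalized counts in WT and 691307, 605181 and 623055 in Sgo1-/+, or 4.91% to 5.60% of all counts in a library. Their mean ± SD (n = 3) was 616147 ± 57597 for WT against 639848 ± 45452 for Sgo1-/+, so the groups overlapped. WT replicate 1, the highest library for the nuclear genes, was the lowest of the 6 here, and was lowest for 8 of the 9 rows tested. Gm13340 had 287791, 331113 and 325439.6 normalized counts in WT and 340647, 306413 and 316711 in Sgo1-/+, a log2 fold change of 0.03 ± 0.19. Gm13341 had 92312, 101131 and 111623 in WT and 116335, 100607 and 102018 in Sgo1-/+, a log2 fold change of 0.06 ± 0.17. Gm11410 had 86377, 105467 and 104172 in WT and 115429, 102195 and 99950.3 in Sgo1-/+, a log2 fold change of 0.10 ± 0.18. By edgeR's quasi-likelihood test, 0 of the 9 rows had an unadjusted p-value under 0.05. Their median log2 fold change was 0.09, with 0 of 9 below 0, and without WT replicate 1 it was -0.0006, with 5 of 9 below 0. The other rows resemble mt-Nd2, mt-Nd4l, mt-Nd5 and mt-Nd6 of complex I, or are further copies of mt-Co1 and mt-Co2.

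The ratio of the 10 rows to the 92 nuclear genes was 3.80, 5.25 and 5.33 in WT and 5.41, 4.83 and 4.87 in Sgo1-/+. The mean ± SD (n = 3) was 4.80 ± 0.859 for WT against 5.04 ± 0.324 for Sgo1-/+, and the WT mean was 5.29 without WT replicate 1. The ratio thus placed WT replicate 1 below the other 5 libraries and left the groups overlapping.

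**Figure D5:**
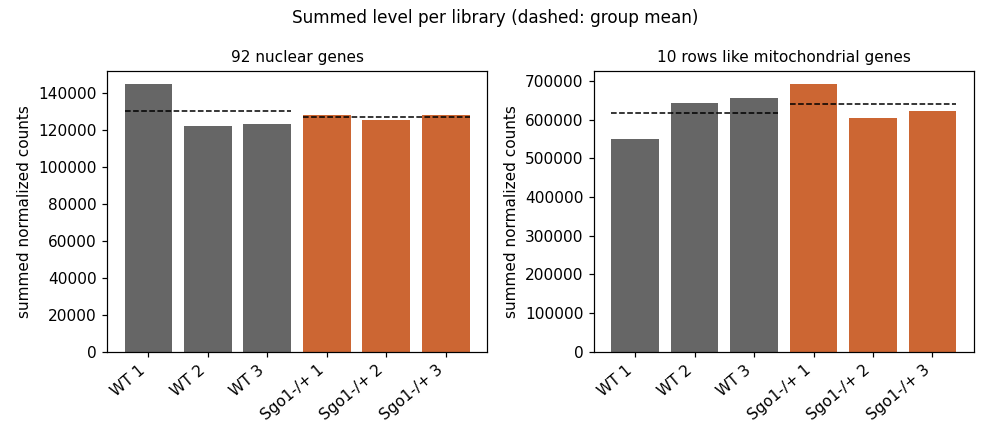
Summed normalized counts (y axis, from 0) of the 92 nuclear genes (left) and of the 10 rows like mitochondrial genes (right) in each library (x axis), with WT in grey, Sgo1-/+ in orange and dashed lines at the group means. WT replicate 1 is the highest library on the left and the lowest on the right.

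Outside the complexes, the genes that assemble, transcribe or feed the chain were read from 5 lists. Of 32 tested genes for cytochrome c and assembly factors, 16 had a fitted change below 0, with a median of -0.001, and 14 were highest in WT replicate 1. Without that library 11 lay below 0, with a median of 0.06. The highest was Sco2, a copper chaperone of complex IV, with 18.8, 24.0 and 18.8 normalized counts in WT and 23.5, 66.3 and 98.3 in Sgo1-/+. Its log2 fold change was 1.59 ± 0.51, with an unadjusted p-value of 0.0173 (adjusted p-value 1.00) by edgeR's quasi-likelihood test. It was the 1 gene of this list under 0.05 before adjustment, against 0.808% of all genes tested on the higher side. Sco2 overlaps Ncaph2 on the opposite strand and Tymp on the same strand, and the use of strand in counting is not given in the sources used here, so its reads cannot be told apart from theirs with certainty. The lowest was its partner Sco1, with 136, 105 and 140.1 in WT and 90.3, 112 and 124 in Sgo1-/+, a log2 fold change of -0.22 ± 0.20.

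Of 15 tested genes for mitochondrial DNA and its transcription, 11 had a fitted change below 0 and 10 were highest in WT replicate 1, with a median of -0.08. Without that library 6 lay below 0, with a median of 0.01. The extremes were the catalytic and the accessory subunit of the mitochondrial DNA polymerase. Polg had 562, 552 and 673 normalized counts in WT and 653, 618 and 736 in Sgo1-/+, a log2 fold change of 0.17 ± 0.13. Polg2 had 102, 38.1 and 33.9 in WT and 41.6, 24.3 and 50.04 in Sgo1-/+, a log2 fold change of -0.57 ± 0.51, or 0.11 ± 0.38 without WT replicate 1.

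The 10 nuclear regulators had 5 fitted changes below 0, with a median of -0.04, and 4 without WT replicate 1, with a median of 0.04. Nrf1, a transcription factor of many respiratory chain genes, had 239.6, 193 and 192 normalized counts in WT and 251, 239 and 230.1 in Sgo1-/+, a log2 fold change of 0.20 ± 0.14. Without WT replicate 1 its log2 fold change was 0.32 ± 0.14, with an unadjusted p-value of 0.0495 (adjusted p-value 1.00) by edgeR's quasi-likelihood test. Esrrg, an orphan nuclear receptor, had 1106, 401 and 592 in WT and 539, 485 and 651 in Sgo1-/+, a log2 fold change of -0.33 ± 0.35 that became 0.17 ± 0.20 without WT replicate 1. Of the 17 genes for pyruvate dehydrogenase and the citric acid cycle, 11 lay below 0, with a median of -0.006, and 11 were highest in WT replicate 1. Without it 5 lay below 0, with a median of 0.05. Dlat, the acetyltransferase of pyruvate dehydrogenase, had the lowest log2 fold change, -0.11 ± 0.10, with 1349, 1241 and 1237 normalized counts in WT and 1179.8, 1134 and 1225 in Sgo1-/+. Dlst, the succinyltransferase of the oxoglutarate dehydrogenase complex, had the highest, 0.04 ± 0.13, from 1665, 1389 and 1568 in WT and 1386, 1561 and 1792 in Sgo1-/+. Of 18 genes for mitochondrial membranes and mass, 10 lay below 0, with a median of -0.02, and 11 were highest in WT replicate 1. Without it 7 lay below 0, with a median of 0.02. The extremes were the outer membrane fusion proteins Mfn2 at 0.11 ± 0.12 and Mfn1 at -0.24 ± 0.19. Mfn2 had 2455, 2838 and 3135 normalized counts in WT and 2918, 3070.3 and 3092 in Sgo1-/+. Mfn1 had 1310.3, 1004 and 783 in WT and 899, 893 and 838 in Sgo1-/+. Leaving out WT replicate 1 gave 0.02 ± 0.10 for Mfn2 and -0.03 ± 0.13 for Mfn1 on the log2 scale. Over these 4 lists 0 genes had an unadjusted p-value under 0.05 by edgeR's quasi-likelihood test with all 6 libraries, against 2.04% of all genes tested.

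Elements of transcription factors known from respiratory chain promoters were counted as a feature that the choice by symbol did not use. RefSeq windows of 300 bases on GRCm38.p6, from 250 bases before to 50 after the gene start, matched 75 of the 92 genes. The palindrome CGCATGCG, the core of the element bound by NRF1, occurred in 11 of the 75, or 14.7%, against 2.07% of 27025 genes. The YY1 element AAGATGGC, searched on both strands, also occurred in 11, or 14.7%, against 3.19%, and the ETS element CCGGAAGT, again on both strands, in 5, or 6.67%, against 4.31%. The motifs were chosen after the data were seen, and for NRF1 a longer form of the palindrome had been searched first and was replaced by this shorter core, which more promoters hold. These are matches of letters and not sites of binding. The 27025 genes were all those with a window, not limited to expressed genes and not matched for GC content. Matches to the NRF1 core are printed in 30-base windows with the core in capitals, where the whole window lies before the gene start, for comparison with the values of their genes.

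Cox6a1, chr5:115349101-115349130, minus strand: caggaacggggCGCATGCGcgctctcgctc
Atp5g2, chr15:102671070-102671099, minus strand: ggctccggccgCGCATGCGcagagccttcc
Atp5j, chr16:84835105-84835134, minus strand: aggccagaataCGCATGCGtacagtgcagt
Atp5k, chr5:108434430-108434459, minus strand: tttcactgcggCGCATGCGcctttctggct
Atp5l, chr9:44920963-44920992, minus strand: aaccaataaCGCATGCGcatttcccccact
Ndufa11, chr17:56717692-56717721, plus strand: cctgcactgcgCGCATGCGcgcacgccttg
Ndufaf4, chr4:24897960-24897989, plus strand: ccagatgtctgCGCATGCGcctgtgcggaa

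With all 6 libraries, the genes behind these windows did not share a direction. The log2 fold change was 0.23 ± 0.10 for Cox6a1, -0.08 ± 0.16 for Atp5j, 0.02 ± 0.12 for Atp5k, -0.17 ± 0.24 for Atp5l, -0.07 ± 0.14 for Ndufa11 and -0.07 ± 0.15 for Ndufaf4, while Atp5g2 was not tested. WT replicate 1 was the highest library for 5 of these 6 tested genes, all except Cox6a1. Without that library the values were 0.20 ± 0.10 for Cox6a1, 0.08 ± 0.10 for Atp5j and 0.11 ± 0.10 for Atp5k. They were 0.16 ± 0.14 for Atp5l, 0.06 ± 0.11 for Ndufa11 and -0.01 ± 0.15 for Ndufaf4. In that comparison 21 of all 88 genes lay below 0. The remaining matches, in Ndufa8, Ndufaf5, Uqcr11 and Uqcrc1, lie close to or after the gene start.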

How the data were processed

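Cerebrum RNA of 3 WT and 3 Sgo1-/+ mice was sequenced, from 1 hemisphere per mouse by the study's methods. The authors deposited estimated counts per gene without normalization, on mm10. The labels name BWA and edgeR, and the study's methods name the Strand NGS software; the Ensembl release and the use of strand are not given in the sources used here. Columns were matched to mice by group and title number. Another 6 columns, 1 per sample, of normalized log2 values, and the authors' own comparison columns of fold change were not used.

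Counts were rounded and compared with edgeR 4.0.16 (quasi-likelihood test, TMM, default filter, R 4.3.3), with Benjamini-Hochberg adjustment over 16337 genes. The SE is the size of the log2 fold change divided by the square root of F. Each library came from a separate mouse, so p-values measure the spread between mice. Counting floors (3 counts) cover counting error only. Fits were tested on simulated data with less spread than these 6 libraries and no outlying library, which checks the code and not the power reached here.

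The genes and lists were chosen with earlier results of these data known. Named are the extremes and the gene of highest level per length in each complex, genes with groups that do not overlap, isoform sets, core subunits, filtered genes and list extremes; 1 gene is not reported here by name, and the rows like mitochondrial genes and the Cox7c copies were added after values were seen. Alternatives were DESeq2 1.42.0, edgeR's likelihood ratio test, limma 3.58.1 on log2 values, other scalings and filters, sex, a replicate block and each library left out. Mitochondrial resemblance used blastn 2.17.0.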

Additional observations from a re-analysis of the deposited data

How the results depend on the processing

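The count of 0 genes at an adjusted p-value under 0.05 held under every alternative run. Among all genes tested these runs called 0 to 3. At an unadjusted p-value under 0.05, DESeq2 gave 1 gene (Cox6a2), against 1.7% of all genes tested. By edgeR's likelihood ratio test there were 2 (Cox6a2 and Cox7a1), against 2.32%. The fits that left out a library gave 0 to 3, against 1.44% to 6.21%. The 3 were Cox6a1, Cox6a2 and Cox7a1 without WT replicate 3, where 6.21% of all genes tested passed. The replicate block gave 1 (Cox6a2), against 1.71%. Replicate numbers did not pair the samples, since the deviations of same-numbered libraries correlated at -0.15, 0.01 and -0.21. Leaving out a library moved the number of genes with a fitted change below 0 between 21, without WT replicate 1, and 69, and the median of complex III between -0.062 and 0.11. Scaling by total count alone moved the median of all genes to -0.06 and that of the 88 genes to -0.11.

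Signs of small changes depended on single libraries. Over the fits that left out 1 library, the log2 fold change ranged from -0.092 to 0.39 for Ndufa4l2, -0.45 to 0.22 for Ndufaf2, -0.11 to 0.013 for Ndufb4, -0.14 to 0.0091 for Sdha, -0.084 to 0.069 for Sdhc, -0.095 to 0.037 for Uqcrc1, -0.23 to 0.11 for Uqcrh and -0.00205 to 0.19 for Uqcr11. In complex IV the range was -0.0696 to 0.076 for Cox4i1, -0.21 to 0.034 for Cox5a, -0.13 to 0.11 for Cox6b1, -1.13 to 0.28 for Cox6b2, -0.19 to 0.14 for Cox7b and -2.28 to 0.84 for Cox8b. For the remaining genes it was -0.097 to 0.035 for Atp5b, -0.014 to 0.21 for Atp5g1, -0.14 to 0.039 for Atp5g3, -0.32 to 0.16 for Atp5l, -0.85 to 0.11 for Polg2, -0.60 to 0.17 for Esrrg, -0.064 to 0.12 for Dlst, -0.031 to 0.067 for Gm13340 and -0.0046 to 0.14 for Gm13341. Cox8b was at -0.605 with limma and -0.48 with the replicate block, and with total counts alone Dlst was at -0.026 and Gm13340 at -0.027. The causes were not tested. Library sizes without the mitochondrial chromosome could not be computed, since the table's rows lie on 21 nuclear chromosomes. Leaving out the rows like mitochondrial genes, chosen after seeing the data, changed no sign of a named gene. Depth limits the values of Cox7a1, Cox8b and Cox6b2, which had under 100 normalized counts in every library.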
